A study of Mus musculus with 10 samples.

Results

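The lysosome genes described here are 50 protein-coding genes of the mouse, taken by name from the 27179 genes of the deposited count table. They encode 16 hydrolases that act on glycans, 9 proteins of lipid and protein breakdown, 9 proteins of the lysosomal membrane, 14 subunits and accessory proteins of the vacuolar proton pump, and the transcription factors Tfeb and Tfe3. Cathepsins are not among them, and the rule that lists them goes by gene name and role, not by a measured value. The genes were nevertheless chosen with earlier results of these data known, so their counts beside a background share are descriptive only. All 50 had counts enough for testing, as did 15681 genes in all. RNA came from 5 myeloid populations, which were freshly sorted. The donors were C57BL/6 mice, female, adult and virgin, the tissue was mammary gland, and the labels name no engineered allele and no treatment. The populations were ductal macrophages and stromal macrophages, together with dendritic cells in 3 sorts, CD11b+, CD11b-CD103+ and CD11b-CD103-. Each population had 2 biological replicates, 10 libraries in all, and the labels do not say whether a replicate was 1 mouse or a pool. The CD11b-CD103+ and CD11b-CD103- dendritic cells are called CD103+ and CD103- cells below.

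Lysosomes are acidic compartments in which phagocytes break down what they take up and what their own autophagy delivers. Hydrolases reach them mostly through mannose 6-phosphate receptors, and the membrane is lined by heavily glycosylated proteins such as LAMP1 and LAMP2. The vacuolar ATPase acidifies the lumen: its membrane sector, V0, carries protons, and its cytosolic sector, V1, hydrolyses ATP. TFEB and TFE3 bind E-box letters in the promoters of many lysosomal genes when mTORC1 signalling is low. Macrophages are known for strong lysosomal degradation, whereas dendritic cells are known for slower breakdown of antigen.

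The E-box core, CACGTG, is shown because Tfeb and Tfe3 are themselves among the 50 genes and because several of their known targets differ between these populations. RefSeq promoter windows of the GRCm38.p6 build, 250 bases before to 50 bases after an annotated start, were available for 43 of the 50 genes. CACGTG, which reads the same on both strands, occurred in 12 of the 43 (27.9%). It occurred in 1324 of the 11766 tested genes with a window (11.3%) and in 8.09% of all 27025 genes with a window. The longer TCACGTG, which contains CACGTG and was searched on both strands, was in the same number of lysosome genes, 12, against 6.62% of tested genes. By role, CACGTG was found in 6 of 15 glycan hydrolases, 3 of 9 membrane proteins, 2 of 6 V0 and accessory genes, 1 of 4 V1 genes, none of 7 lipid and protein breakdown genes and neither transcription factor. Stretches upstream of the start are given 5′ to 3′ on the gene's strand, with CACGTG in capitals. Lamp1 held 4 matches, and Atp6v0b, Mcoln1, Gla and Clcn7 held 2, of which 1 in Clcn7 lies after the start and is not printed. Gaa, Glb1 and Naglu are among the genes highest in ductal macrophages below.
Lamp1 (chr8:13159080-13159160, plus strand): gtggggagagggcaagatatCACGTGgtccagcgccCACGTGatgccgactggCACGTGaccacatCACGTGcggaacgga
Mcoln1 (chr8:3500428-3500499, plus strand): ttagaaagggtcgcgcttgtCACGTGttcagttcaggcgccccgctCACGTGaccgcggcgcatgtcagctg
Atp6v0b (chr4:117887330-117887385, minus strand): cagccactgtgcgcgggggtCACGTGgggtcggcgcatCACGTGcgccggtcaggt
Gla (chrX:134601174-134601252, minus strand): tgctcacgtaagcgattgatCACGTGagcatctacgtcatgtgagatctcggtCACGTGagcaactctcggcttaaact
Gaa (chr11:119267803-119267848, plus strand): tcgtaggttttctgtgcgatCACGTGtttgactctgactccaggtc
Glb1 (chr9:114401010-114401055, plus strand): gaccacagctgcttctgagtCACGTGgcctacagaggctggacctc
Naglu (chr11:101070001-101070046, plus strand): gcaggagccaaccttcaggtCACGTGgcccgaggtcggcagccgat
Clcn7 (chr17:25133356-25133390, plus strand): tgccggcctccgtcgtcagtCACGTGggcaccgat

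**Figure D1:**
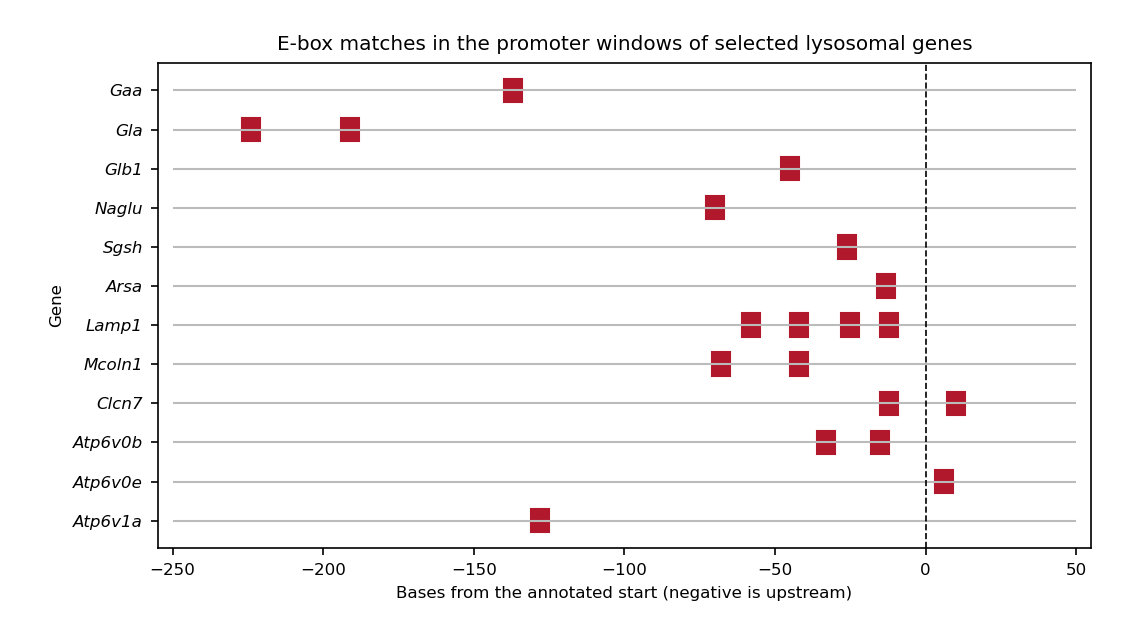
Positions of CACGTG in the promoter windows of the 12 lysosome genes that hold it, in bases from the annotated start (dashed line; negative is upstream). Most matches lie shortly before the start, Lamp1 has 4 of them, and those of Gla lie farthest upstream.

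These letters were set beside the calls reported below. Of the 12 genes with CACGTG, 8 were called higher in ductal than in stromal macrophages, as were 18 of the 31 genes whose windows lack it. Of all tested genes, with or without a window, 16.2% were called higher there. Among the genes higher in ductal macrophages than in each other population (2.58% of all tested genes), 3 had it and 6 lacked it, and for 3 no window was available. Calls among all tested genes were not split by CACGTG. These counts describe the windows and say nothing of binding.

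Library totals were 5636092 and 6388106 counts in ductal macrophages and 5745085 to 23093742 in the other 8 libraries, so that 3 counts correspond to 0.119 to 0.683 CPM (read counts scaled to a common library size, with TMM factors). Mitochondrial genes took 0.631% and 0.891% of counts in ductal macrophages, 24.8% and 23.1% in stromal macrophages and 1.88% to 6.29% in dendritic cells. The summed level of 8 macrophage markers was 19310 and 17522 CPM in ductal and 8255 and 5894 CPM in stromal macrophages. It was 1142 and 1206 CPM in CD11b+ cells and 22.2 to 84.0 CPM in the CD11b- populations. Adgre1 and Csf1r overlapped between stromal macrophages and CD11b+ cells, and the rest of the 8 were lower in CD11b+ cells. Of the dendritic cell markers, the 4 cDC2 genes summed to 26.0 and 26.5 CPM in ductal macrophages, 969 and 650 CPM in stromal macrophages and 2108 and 1485 CPM in CD11b+ cells. The 6 cDC1 genes summed to 980 and 931 CPM in ductal macrophages, where Cadm1 and Irf8 made up most of the sum, and to 167 and 124 CPM in stromal macrophages, where Clec9a and Itgae were at 0. The cDC1 sum was 147 and 183 CPM in CD11b+ cells and 1677 to 2412 CPM in the CD11b- populations. Epithelial markers summed to 160 to 1329 CPM, fibroblast markers to 289 to 1598 CPM and adipocyte markers to 44.7 to 503 CPM, with the lowest sums of adipocyte and epithelial markers in a ductal library. Fabp4 made up most of the adipocyte sum in every library. Adipoq (25.9 and 26.3 CPM in stromal macrophages), Plin1, Cidec and Lep were higher in both stromal libraries than in all 8 others, and Plin4 was not. Among fibroblast markers the same held for Dcn, Lum and Pdgfra, but not for Col1a1, Col1a2 and Col3a1. Endothelial markers summed to 33.5 to 133 CPM in the macrophages, 51.0 and 76.5 CPM in CD11b+ cells, 423 and 285 CPM in CD103+ cells and 335 and 104 CPM in CD103- cells. B cell markers summed to 280.3 CPM in CD103- replicate 2, 34.5 CPM in CD103- replicate 1 and 5.44 to 19.5 CPM in the other 8 libraries. In RefSeq, 22 of the 50 genes overlap another annotated gene, 9 of them a protein-coding one, and their counts may share reads. With mitochondrial genes left out of the fit, 29 of the 50 were higher and 1 lower in ductal than in stromal macrophages (median log2 fold change 1.04), and 20 were higher and 11 lower in stromal macrophages than in dendritic cells (median 0.25). The part of the other cell types in the results below was not tested. In RNA of sorted cells, fewer cells of a type and less RNA per cell cannot be told apart.

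Ductal macrophages gave the largest share of their counts to the 50 genes. It was 2.77% and 2.48% in ductal macrophages, 1.04% and 0.899% in stromal macrophages, 1.53% and 1.59% in CD11b+ cells, 1.62% and 2.13% in CD103+ cells and 2.00% and 1.61% in CD103- cells. Both ductal libraries lay above the other 8. These are shares of all counts, of which mitochondrial genes took 24.8% and 23.1% in stromal macrophages. In TMM-scaled CPM the 50 genes summed to 35515 and 29923 in ductal and 13230 and 9338 in stromal macrophages. The dendritic cell libraries had 11968 to 18982 CPM, so stromal replicate 1 overlapped them on that scale. The highest mean CPM was in ductal macrophages for 37 of the 50 genes, against 21.1% of all tested genes. For 28 of the 50, both ductal libraries lay above all 8 others, against a background of 12.2% of tested genes, and for none did both lie below, against 9.88%. The lowest mean was in ductal macrophages for 1 gene, Smpd1 (background 27.8%), in stromal macrophages for 15 (24.9%), in CD11b+ cells for 4 (19.3%), in CD103+ cells for 11 (15.1%) and in CD103- cells for 19 (12.9%).

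Smaller counts of the 50 set another population apart from all the rest. The share below the rest was at the background in stromal macrophages and above it in CD103- cells. Both stromal libraries lay above the other 8 for Smpd1, Atp6v1e1 and Tfe3 (3 genes, background 13.6%) and below them for Gusb, Man2b1, Galns, Psap, Gm2a and Laptm5 (6 genes, background 12.0%). Both CD11b+ libraries lay above for Atp6v0e (background 9.14%) and below for Fuca1 (background 5.76%). Both CD103+ libraries lay below for Tfeb (background 2.90%) and above for no gene (background 4.10%). Both CD103- libraries lay below for Tpp1, Lamp2, Laptm4a, Atp6v0a1, Atp6v0c and Tfe3 (6 genes, background 2.44%) and above for no gene (background 4.42%).

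**Figure D2:**
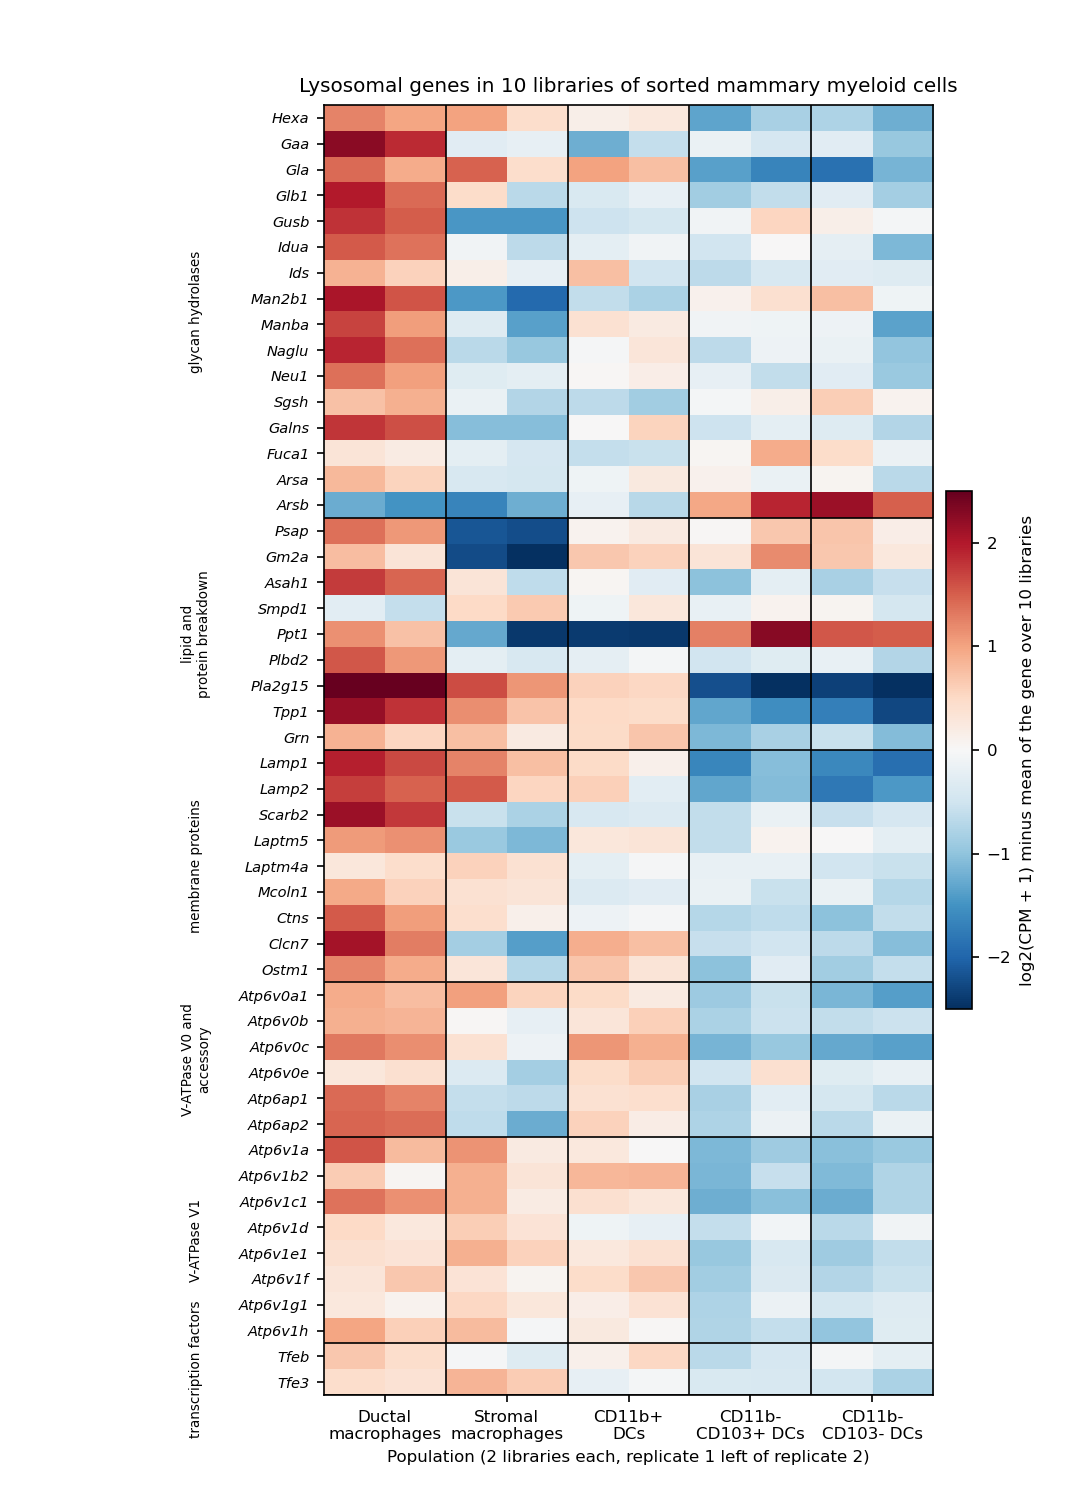
Level of each of the 50 genes in each library as log2(CPM + 1) minus the gene's mean over the 10 libraries, grouped by role, with the scale ending at 2.5 in either direction. The ductal columns are red for most genes, the stromal columns are blue for Psap, Gm2a, Man2b1 and Gusb, and most V1 subunits are red in both macrophage populations and in CD11b+ cells, with Atp6v1d below its mean in CD11b+ cells.

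Per kilobase of exon, Psap was the most abundant of the 50 in ductal macrophages (2957 CPM per kilobase), CD11b+ cells (1396), CD103+ cells (1642) and CD103- cells (1718), whereas in stromal macrophages it stood at 276 and Lamp1 led with 542. Laptm5 came next in ductal macrophages with 1729 CPM per kilobase, then Lamp1 with 933. Ppt1 was the next most abundant after Psap in CD103+ and CD103- cells, with 1008 and 801 CPM per kilobase. The order of the leading genes therefore differed between populations, with Psap contributing 24.7% of the summed CPM of the 50 in ductal macrophages.

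Counts of calls differed widely between the comparisons. A gene was called at a Benjamini-Hochberg adjusted p under 0.05 in edgeR's quasi-likelihood test over all 15681 genes. In ductal against stromal macrophages, 29 lysosome genes were higher (background 16.2% of tested genes), 1 was lower (background 14.3%) and 20 were not called. Their median log2 fold change was 1.05, and that of all tested genes -0.10. In ductal macrophages against the mean of the 3 dendritic cell populations, 42 were higher (background 15.0%) and 1 was lower (background 11.6%), with a median of 1.47 against -0.09 over all genes. These comparisons share the ductal libraries.

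Stromal macrophages stood apart from this. Against the dendritic cell mean, 20 of the 50 were higher (background 20.2%) and 10 lower (background 18.1%), with a median of 0.26 against 0.03 over all genes. With library totals in place of TMM, the split was 12 higher and 16 lower, while the median of all genes moved to -0.34. Without stromal replicate 1 there were 10 higher, and without stromal replicate 2 there were 6 lower. CD11b+ cells against the mean of both CD11b- populations had 22 higher (background 14.1%) and 5 lower (background 11.0%), with a median of 0.69 against -0.07. Without CD11b+ replicate 1 there were 14 higher, and leaving out CD103- replicate 1, CD103+ replicate 2 or either CD11b+ library left 2 lower.

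**Figure D3:**
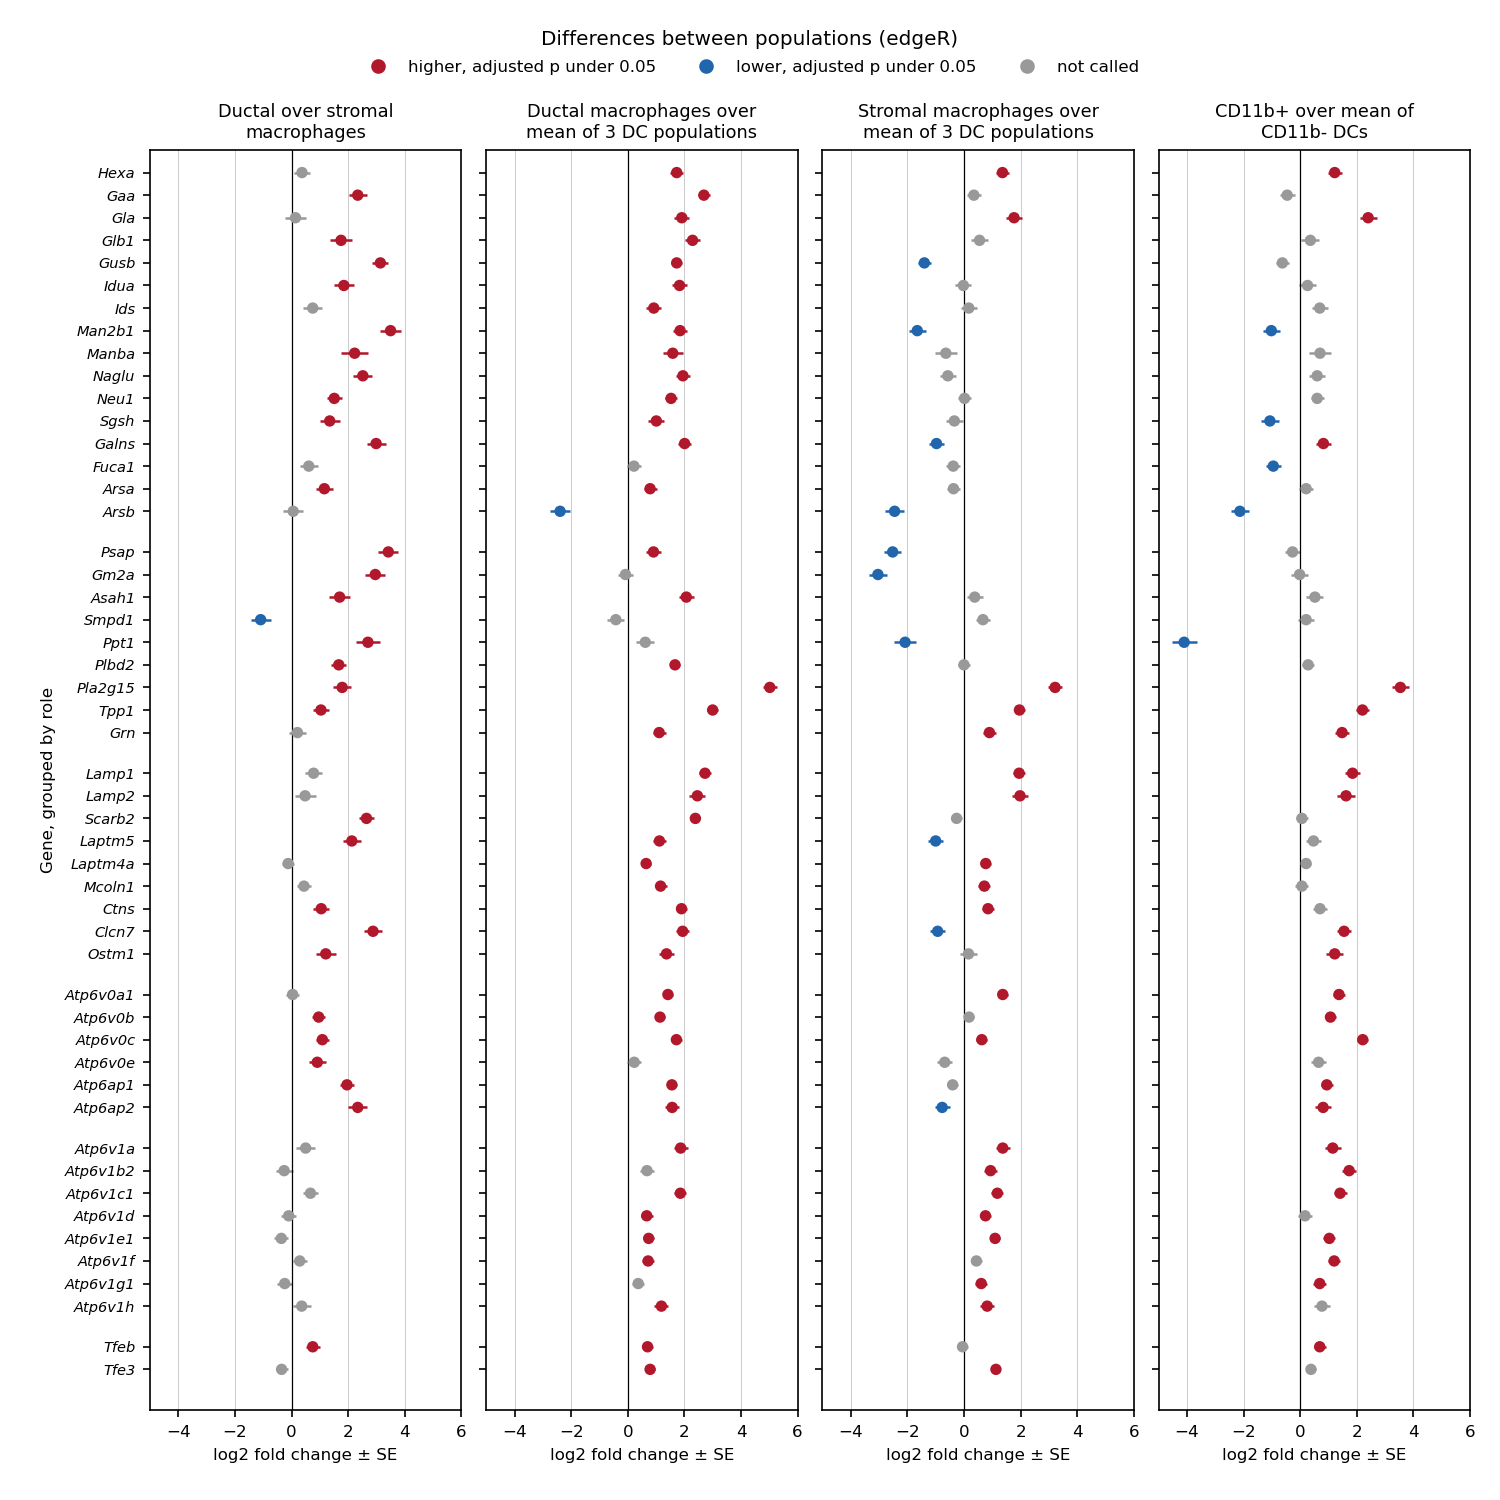
Log2 fold change ± SE of each lysosome gene in 4 comparisons, from edgeR, with red for genes called higher, blue for genes called lower and grey for genes not called. In the first panel the V1 subunits cluster at 0 while most hydrolases lie to the right, and in the third panel the V1 subunits lie to the right while Psap, Gm2a and Ppt1 lie far to the left.

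The glycan hydrolases remove sugars and sulfates from glycoproteins, glycolipids and glycosaminoglycans, and loss of most of them causes a storage disease. In ductal against stromal macrophages 11 of the 16 were higher (background 16.2%), with a median log2 fold change of 1.63. Against dendritic cells 14 were higher in ductal macrophages (background 15.0%) and 1, Arsb, was lower (background 11.6%). In stromal macrophages against dendritic cells 2 were higher and 4 lower, or 7 lower with library totals in place of TMM. With TMM these counts were not far from the background of 20.2% higher and 18.1% lower. In CD11b+ against CD11b- cells 3 were higher, near the background of 14.1%, and 4 lower (background 11.0%). Without CD103- replicate 1 there were 5 higher, and without it, CD103+ replicate 2 or either CD11b+ library there was 1 lower.

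Man2b1 (Entrez gene 17159, chr8:85082730-85098739), the lysosomal alpha-mannosidase, had 1438 and 1042 CPM in ductal macrophages and 129 and 90.1 CPM in stromal macrophages. In dendritic cells it had 228 and 202 CPM in CD11b+, 376 and 461 CPM in CD103+ and 586 and 323 CPM in CD103- cells. The ductal libraries were thus the highest and the stromal the lowest of all 10, with no overlap. Its log2 fold change was 3.50 ± 0.36 in ductal over stromal macrophages (edgeR adjusted p = 4.73e-05) and -1.65 ± 0.30 in stromal macrophages over dendritic cells (edgeR adjusted p = 0.00139).

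Gusb (Entrez gene 110006, chr5:129989011-130003049), the beta-glucuronidase, ordered the populations in a similar way. It had 880 and 709 CPM in ductal macrophages, 90.5 and 90.3 CPM in stromal macrophages, 173 and 184 CPM in CD11b+ cells, 236 and 360 CPM in CD103+ cells and 274 and 242 CPM in CD103- cells. Ductal over stromal macrophages gave a log2 fold change of 3.14 ± 0.28 (edgeR adjusted p = 1.99e-05). Galns, a sulfatase for keratan and chondroitin sulfate, had 41.2 and 35.9 CPM in ductal macrophages, 4.86 and 4.85 CPM in stromal macrophages and 6.29 to 16.9 CPM in the 6 dendritic cell libraries. Its ductal over stromal log2 fold change was 2.99 ± 0.34 (edgeR adjusted p = 9.53e-05).

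Gaa (Entrez gene 14387, chr11:119267963-119285458), the acid alpha-glucosidase that digests glycogen, was high in ductal macrophages alone. It had 316 and 240 CPM in ductal macrophages, 53.4 and 56.3 CPM in stromal macrophages and 27.5 to 58.0 CPM in dendritic cells. Stromal macrophages and dendritic cells overlapped, and ductal macrophages exceeded every other population (smallest of the 4 log2 fold changes 2.34, edgeR adjusted p = 0.00141). Glb1, Idua, Naglu and Neu1, which act on beta-galactosides, iduronic acid, heparan sulfate glucosamine and sialic acid, had the same placing, with smallest log2 fold changes of 1.75, 1.66, 1.55 and 1.13. Reads of Glb1 and Idua may be shared with the overlapping genes Tmppe and Slc26a1, since no source states whether the counting used strand.

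Hexa, the alpha chain of beta-hexosaminidase and the most abundant glycan hydrolase per kilobase in ductal macrophages (560 CPM per kilobase), did not separate the macrophages. It had 1135 and 952 CPM in ductal and 964 and 647 CPM in stromal macrophages, which overlapped (log2 fold change 0.37, 95% interval -0.27 to 1.02). It had 532 and 576 CPM in CD11b+ cells and 192 to 282 CPM in the CD11b- populations. Either macrophage population was higher than the mean of the dendritic cell populations. Against CD11b+ cells alone, stromal macrophages were not called higher for Hexa, nor for any other of the 16 glycan hydrolases. Gla, the alpha-galactosidase, followed a like course, with 294 and 209 CPM in ductal macrophages, 307 and 149 CPM in stromal macrophages, 222 and 184 CPM in CD11b+ cells and 29.5 to 48.2 CPM in the CD11b- populations. Its log2 fold change was 2.40 ± 0.30 in CD11b+ over CD11b- cells (edgeR adjusted p = 0.000237).

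Arsb, the sulfatase of dermatan and chondroitin sulfate, ran the other way. It had 24.4 and 20.2 CPM in ductal macrophages, 18.1 and 24.6 CPM in stromal macrophages, 51.0 and 35.9 CPM in CD11b+ cells, 116 and 222 CPM in CD103+ cells and 263 and 168 CPM in CD103- cells. Every CD11b- library lay above every other library. The log2 fold change was -2.39 ± 0.34 in ductal macrophages over dendritic cells, -2.45 ± 0.33 in stromal macrophages over dendritic cells and -2.13 ± 0.33 in CD11b+ over CD11b- cells (edgeR adjusted p = 0.000338, 0.000214 and 0.001). Sgsh, Man2b1 and Fuca1 were also lower in CD11b+ than in CD11b- cells, by log2 fold changes of -1.07, -1.02 and -0.95. These 3 calls were each lost in 4 to 7 of the 16 alternative settings, each of them without CD103- replicate 1, CD103+ replicate 2 or either CD11b+ library.

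**Figure D4:**
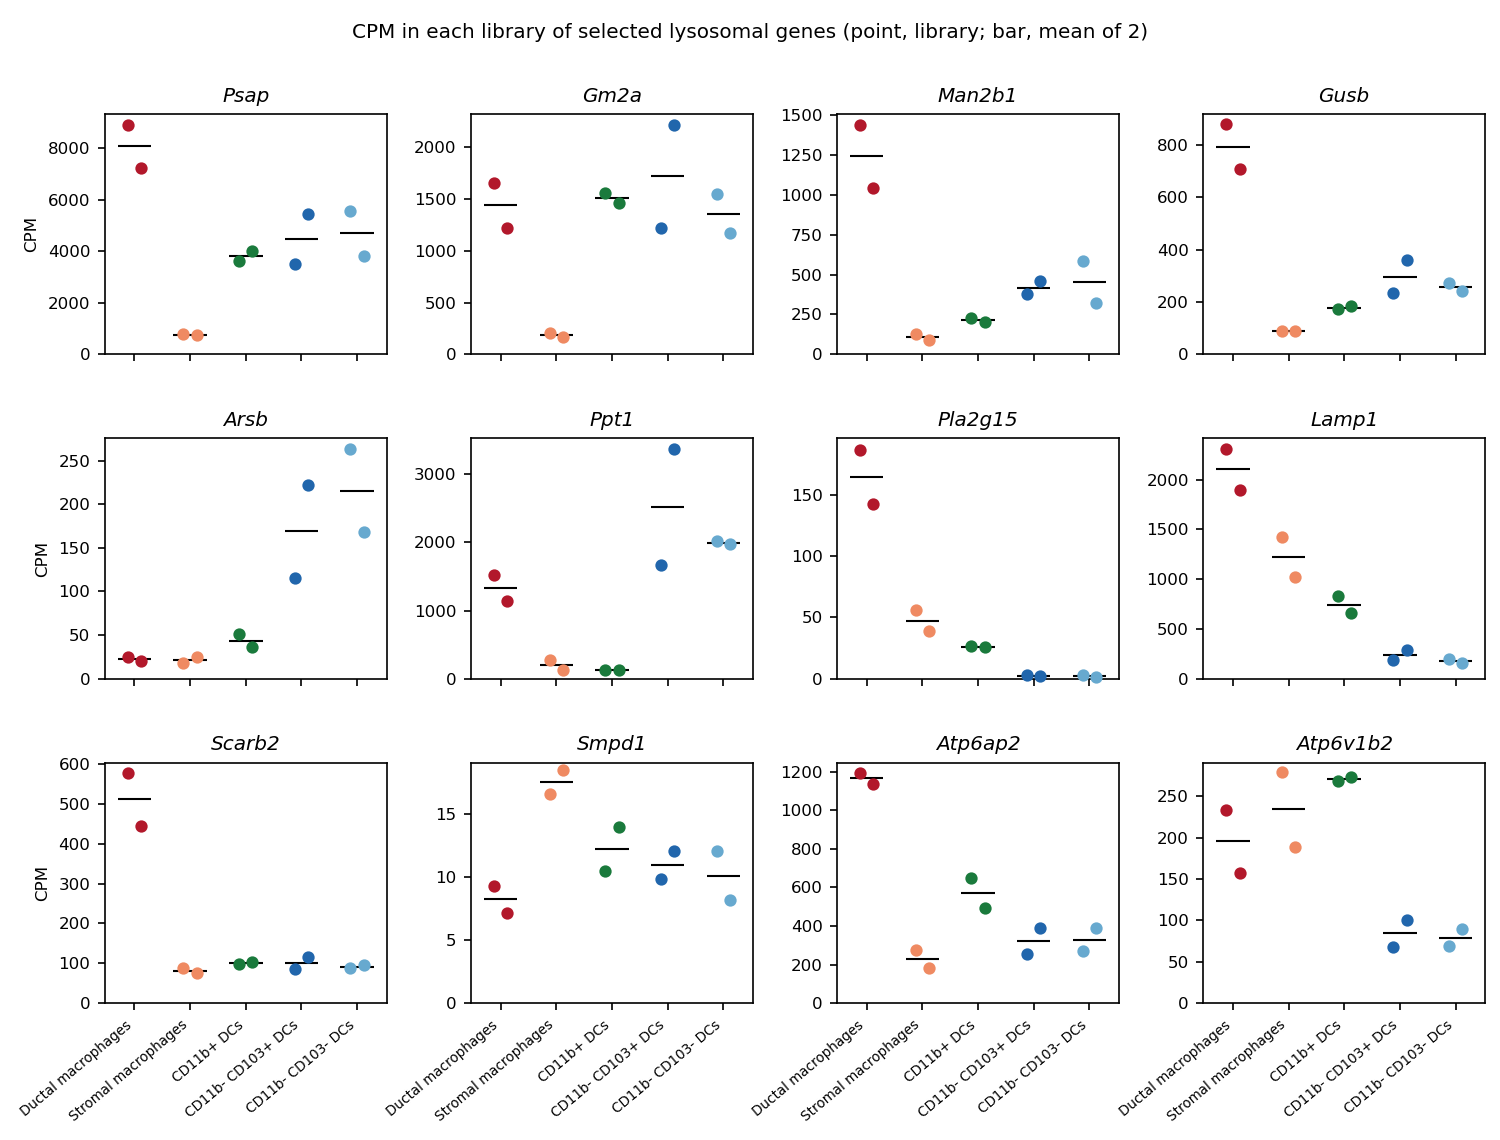
CPM of 12 lysosome genes in each library (points) with the mean of each population (bars), each panel on its own linear axis from 0. Psap, Man2b1 and Gusb are lowest in stromal macrophages, Arsb and Ppt1 are high in the CD11b- populations, and Pla2g15 and Lamp1 are highest in ductal macrophages, then in stromal macrophages, then in CD11b+ cells.

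Among the 9 genes of lipid and protein breakdown, 7 were higher and 1 lower in ductal than in stromal macrophages (background 16.2% and 14.3%), with a median log2 fold change of 1.70. Against dendritic cells 6 were higher in ductal macrophages (background 15.0%). The same genes split evenly in stromal macrophages against dendritic cells, with 3 higher and 3 lower (background 20.2% and 18.1%).

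Psap (Entrez gene 19156, chr10:60277628-60302600) encodes the precursor of the saposins, which present sphingolipids to their hydrolases. It had 8918 and 7235 CPM in ductal macrophages and 771 and 738 CPM in stromal macrophages. Dendritic cells lay between, with 3623 and 4004 CPM in CD11b+, 3503 and 5465 CPM in CD103+ and 5552 and 3829 CPM in CD103- cells. The log2 fold change of stromal macrophages over dendritic cells was -2.52 ± 0.31 (edgeR adjusted p = 0.00012), and that of ductal macrophages over dendritic cells was 0.91 ± 0.25 (edgeR adjusted p = 0.0218). The second call was lost without either ductal library, without CD11b+ replicate 1 and with library totals in place of TMM, where the log2 fold change was as low as 0.42 over the alternatives.

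Gm2a, the activator protein that lifts ganglioside GM2 to hexosaminidase A, was low in stromal macrophages alone. It had 1654 and 1224 CPM in ductal macrophages, 205 and 165 CPM in stromal macrophages and 1174 to 2219 CPM in dendritic cells. The log2 fold change was 2.96 ± 0.36 in ductal over stromal macrophages and -3.04 ± 0.33 in stromal macrophages over dendritic cells (edgeR adjusted p = 0.000133 and 4.64e-05). Ductal macrophages overlapped dendritic cells (log2 fold change -0.08 ± 0.27).

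Ppt1, which removes palmitate from proteins, fell into a high and a low set of populations. It had 1525 and 1142 CPM in ductal macrophages, 282 and 129 CPM in stromal macrophages, 131 and 130 CPM in CD11b+ cells, 1662 and 3362 CPM in CD103+ cells and 2013 and 1979 CPM in CD103- cells. The log2 fold change of -4.10 ± 0.44 in CD11b+ over CD11b- cells (edgeR adjusted p = 8.48e-05) was larger than any other fall of the 50 genes in the comparisons plotted above. Stromal macrophages and CD11b+ cells overlapped at the low level.

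Pla2g15 (Entrez gene 192654, chr8:106150354-106164718), the lysosomal phospholipase A2, gave the largest rise against dendritic cells. It had 187 and 142 CPM in ductal macrophages, 56.1 and 38.6 CPM in stromal macrophages, 26.6 and 25.5 CPM in CD11b+ cells and 1.31 to 3.02 CPM in the CD11b- populations. The populations did not overlap except for the CD103+ and CD103- cells. Log2 fold changes were 5.02 ± 0.25 in ductal macrophages over dendritic cells, 3.22 ± 0.24 in stromal macrophages over dendritic cells and 3.54 ± 0.29 in CD11b+ over CD11b- cells (edgeR adjusted p = 1.99e-07, 3.81e-06 and 1.18e-05).

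Tpp1, a tripeptidyl peptidase, stepped down in the same order as Pla2g15. For neither gene was the step from stromal macrophages to CD11b+ cells called. Tpp1 had 501 and 385 CPM in ductal macrophages, 249 and 182 CPM in stromal macrophages, 156 and 151 CPM in CD11b+ cells, 44.3 and 36.9 CPM in CD103+ cells and 32.8 and 22.0 CPM in CD103- cells. It was 7.98-fold higher in ductal macrophages than in dendritic cells, 3.88-fold higher in stromal macrophages than in dendritic cells and 4.6-fold higher in CD11b+ than in CD11b- cells (edgeR adjusted p = 1.34e-06, 3.28e-05 and 5.86e-05). Asah1, the acid ceramidase, and Plbd2, a phospholipase B-like protein, exceeded every other population in ductal macrophages, with smallest log2 fold changes of 1.70 and 1.48. Grn, whose product progranulin is cleaved into granulins in the lysosome, overlapped between ductal and stromal macrophages, with 1252 and 999 CPM in ductal and 1158 and 794 CPM in stromal macrophages.

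Smpd1, the acid sphingomyelinase, was the only one of the 50 called lower in ductal than in stromal macrophages. It had 9.34 and 7.19 CPM in ductal macrophages, 16.6 and 18.5 CPM in stromal macrophages and 8.19 to 14.0 CPM in dendritic cells. Ductal over stromal macrophages, the log2 fold change was -1.09 ± 0.35 (edgeR adjusted p = 0.0362). The call was lost in 9 of 16 alternative settings, among them leaving out either ductal library, either stromal library, either CD103+ library or either CD11b+ library.

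All 9 membrane proteins were higher in ductal macrophages than in dendritic cells (background 15.0%), with a median log2 fold change of 1.90. Against stromal macrophages 5 were higher (background 16.2%), and without ductal replicate 1 or without stromal replicate 2 there were 3. In stromal macrophages against dendritic cells 5 were higher (background 20.2%) and 2 lower, near the background of 18.1%. In CD11b+ against CD11b- cells 4 were higher (background 14.1%). Without stromal replicate 1, or with library totals in place of TMM, 2 were higher in stromal macrophages, and without stromal replicate 2 none was called lower. Without CD11b+ replicate 1, 2 were higher in CD11b+ cells.

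Lamp1 (Entrez gene 16783, chr8:13159161-13175338), the main glycoprotein of the lysosomal membrane, had 2307 and 1901 CPM in ductal macrophages and 1427 and 1020 CPM in stromal macrophages. It had 834 and 656 CPM in CD11b+ cells, 193 and 286 CPM in CD103+ cells and 196 and 163 CPM in CD103- cells. The macrophages did not overlap, but the log2 fold change of 0.78 ± 0.30 in ductal over stromal macrophages did not pass (edgeR adjusted p = 0.07). It passed with DESeq2, with library totals in place of TMM and without stromal replicate 1. Against dendritic cells it was 2.73 ± 0.22 in ductal and 1.95 ± 0.22 in stromal macrophages (edgeR adjusted p = 5.3e-06 and 7.02e-05).

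Lamp2, needed for chaperone-mediated autophagy and for fusion of autophagosomes with lysosomes, had 1965 and 1638 CPM in ductal macrophages, 1722 and 862 CPM in stromal macrophages, 893 and 493 CPM in CD11b+ cells and 172 to 279 CPM in the CD11b- populations. Ductal and stromal macrophages overlapped. Log2 fold changes against dendritic cells were 2.46 ± 0.28 in ductal and 1.98 ± 0.28 in stromal macrophages.

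Scarb2, the membrane receptor that carries glucocerebrosidase to the lysosome, was high in ductal macrophages alone. It had 577 and 445 CPM in ductal macrophages and 74.7 to 117 CPM in the other 8 libraries, which overlapped one another. Ductal macrophages exceeded every other population, with a smallest log2 fold change of 2.34 (edgeR adjusted p = 0.000564). Laptm5, a lysosomal membrane protein of blood cells, had 4028 and 4265 CPM in ductal macrophages, 1014 and 884 CPM in stromal macrophages and 1247 to 2407 CPM in dendritic cells.

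Clcn7, the chloride-proton exchanger, and its subunit Ostm1 were both higher in ductal than in stromal macrophages. Clcn7 had 216 and 123 CPM in ductal macrophages, 27.3 and 18.8 CPM in stromal macrophages, 94.8 and 85.3 CPM in CD11b+ cells and 23.6 to 35.9 CPM in the CD11b- populations. The log2 fold change was 2.88 ± 0.32 (edgeR adjusted p = 7.42e-05). For Ostm1 it was 1.21 ± 0.36 (edgeR adjusted p = 0.0265), a call lost without either ductal library and without stromal replicate 2. Both were also higher in CD11b+ than in CD11b- cells, with log2 fold changes of 1.55 for Clcn7 and 1.22 for Ostm1, the Ostm1 call lost without CD11b+ replicate 1. Laptm4a and Mcoln1, the TRPML1 channel, were not called between the macrophages, with log2 fold changes of -0.12 and 0.44.

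The V0 and V1 genes of the proton pump were counted separately. In ductal against stromal macrophages, 5 of the 6 V0 and accessory genes were higher (background 16.2%), with a median log2 fold change of 1.03. EdgeR called none of the 8 V1 genes in either direction (background 16.2% higher and 14.3% lower), with a median of 0.09. Without ductal replicate 1 or without stromal replicate 2, 3 of the 6 V0 and accessory genes were called. In the V1 genes, 95% intervals of the log2 fold change ran from -0.92 to 1.28, and differences within an interval are not excluded for its gene. With edgeR, 1 of the 8 had an unadjusted p under 0.05. DESeq2 called 1 V1 gene higher, and edgeR without stromal replicate 1 called 2. With library totals in place of TMM, the V1 median was -0.01. The difference between the sectors was not tested as such, and the largest changes of the first list were those of the accessory genes Atp6ap1 and Atp6ap2.

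Atp6ap2, the accessory protein also known as the prorenin receptor, had 1195 and 1138 CPM in ductal macrophages and 278 and 183 CPM in stromal macrophages. It had 650 and 493 CPM in CD11b+ cells and 255 to 392 CPM in the CD11b- populations. A log2 fold change of 2.34 ± 0.33 was found in ductal over stromal macrophages (edgeR adjusted p = 0.000415). Atp6ap1, the other accessory protein, had 686 and 607 CPM in ductal macrophages and 169 and 164 CPM in stromal macrophages, a log2 fold change of 1.96 ± 0.25 (edgeR adjusted p = 0.000211). Atp6v0b, the most abundant V0 gene per kilobase in ductal macrophages (499 CPM per kilobase), had 503 and 491 CPM in ductal macrophages, 277 and 234 CPM in stromal macrophages, 334 and 410 CPM in CD11b+ cells and 156 to 187 CPM in the CD11b- populations. In each of these genes both ductal libraries lay above the other 8.

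Atp6v0c, which forms most of the proton-carrying ring, had 246 and 219 CPM in ductal macrophages, 128 and 89.8 CPM in stromal macrophages, 211 and 182 CPM in CD11b+ cells and 37.5 to 50.3 CPM in the CD11b- populations. Its log2 fold change was 1.09 ± 0.24 in ductal over stromal macrophages and 2.21 ± 0.20 in CD11b+ over CD11b- cells (edgeR adjusted p = 0.0056 and 2.09e-05). RefSeq annotates pseudogenes of Atp6v0c, and reads shared with them cannot be told apart here. Atp6v0a1, the V0 subunit whose isoforms steer the pump to its membrane, was alike in both macrophages, with 117 and 105 CPM in ductal and 125 and 90.4 CPM in stromal macrophages (log2 fold change 0.04). It had 85.4 and 71.3 CPM in CD11b+ cells and 22.9 to 41.1 CPM in the CD11b- populations, and its log2 fold change in stromal macrophages over dendritic cells was 1.37 ± 0.18 (edgeR adjusted p = 0.000209).

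**Figure D5:**
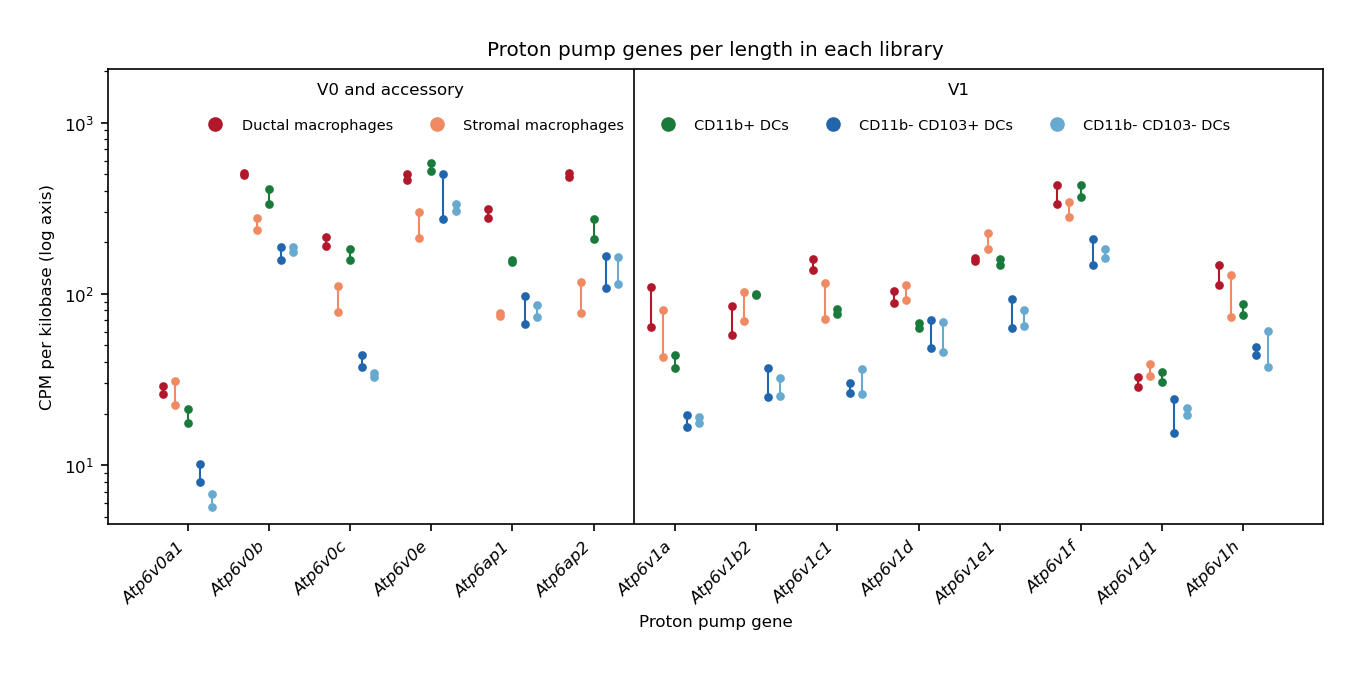
CPM per kilobase of exon, on a log axis, of the 6 V0 and accessory genes and the 8 V1 genes in each library, with a line joining the 2 libraries of a population. For most V1 genes the ductal, stromal and CD11b+ points lie near one another and above the CD11b- points, with overlap for Atp6v1d, while Atp6ap1, Atp6ap2 and Atp6v0b have the stromal points well below the ductal ones.

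Most V1 genes were higher in the macrophages and CD11b+ cells than in the CD11b- populations. In pairwise tests all 8 were higher in stromal macrophages than in CD103+ cells (background 16.0%) and than in CD103- cells (background 16.9%). In ductal macrophages 6 of the 8 were higher than in CD103+ cells (background 12.6%) and 6 than in CD103- cells (background 12.3%). In CD11b+ against CD11b- cells 6 of the 8 V1 genes were higher (background 14.1%). In stromal macrophages against CD11b+ cells edgeR called none (background 11.6% higher and 14.5% lower), with 1 at an unadjusted p under 0.05 and 95% intervals from -0.92 to 1.33. Against the mean of dendritic cells, 6 V1 genes were higher in ductal (background 15.0%) and 7 in stromal macrophages (background 20.2%). The count was 2 in ductal macrophages without ductal replicate 1 and 3 without ductal replicate 2 or with library totals in place of TMM. In stromal macrophages it was 2 without stromal replicate 1 and 4 with library totals.

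Atp6v1b2, the widely expressed isoform of the B subunit of the catalytic head, had 234 and 157 CPM in ductal macrophages, 280 and 189 CPM in stromal macrophages, 269 and 273 CPM in CD11b+ cells, 68.2 and 101 CPM in CD103+ cells and 69.6 and 89.1 CPM in CD103- cells. The macrophages and CD11b+ cells overlapped, and all of their libraries lay above the CD11b- populations. Its log2 fold change was 1.73 ± 0.25 in CD11b+ over CD11b- cells (edgeR adjusted p = 0.000583). Atp6v1f, the most abundant V1 gene per kilobase in ductal macrophages (381 CPM per kilobase), had 211 and 273 CPM in ductal macrophages, 218 and 179 CPM in stromal macrophages, 235 and 276 CPM in CD11b+ cells and 93.9 to 133 CPM in the CD11b- populations. Atp6v1a, the subunit that hydrolyses ATP, had 435 and 253 CPM in ductal macrophages, 317 and 169 CPM in stromal macrophages, 174 and 146 CPM in CD11b+ cells and 66.0 to 77.4 CPM in the CD11b- populations. Atp6v1a and Atp6v1c1 were the V1 genes higher in ductal macrophages than in CD11b+ cells, with log2 fold changes of 1.10 ± 0.34 and 0.92 ± 0.28 (edgeR adjusted p = 0.0361 and 0.0341).

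Tfeb and Tfe3 ranked the populations differently from each other. Tfeb had 53.8 and 45.4 CPM in ductal macrophages, 32.4 and 26.4 CPM in stromal macrophages, 36.2 and 47.8 CPM in CD11b+ cells, 20.4 and 24.7 CPM in CD103+ cells and 32.1 and 28.0 CPM in CD103- cells. Its log2 fold change of 0.75 ± 0.25 in ductal over stromal macrophages passed (edgeR adjusted p = 0.0414) but was lost in 10 of 16 alternatives, among them leaving out either ductal library, either CD103+ library, either CD11b+ library or stromal replicate 2. Tfe3 had 124 and 116 CPM in ductal macrophages, 164 and 141 CPM in stromal macrophages, 78.1 and 87.3 CPM in CD11b+ cells and 52.1 to 69.6 CPM in the CD11b- populations. Both stromal libraries of Tfe3 lay above all 8 others. Tfe3 was higher in stromal macrophages than in dendritic cells, by a log2 fold change of 1.13 ± 0.16 (edgeR adjusted p = 0.000327). Messenger RNA levels do not show how much of either protein is in the nucleus.

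Ductal macrophages exceeded each of the other 4 populations in 12 of the 50 genes (background 2.58%), and no gene of the 50 was below all of them (background 1.19%; none at an unadjusted p under 0.05, and none by DESeq2). These were the glycan hydrolases Gaa, Glb1, Gusb, Idua, Man2b1, Naglu, Neu1 and Galns, the lipid enzymes Asah1, Plbd2 and Pla2g15, and Scarb2. The 12 include none of the 14 pump genes, a count near the background of 2.58%. Of the 14, 8 had their highest mean in ductal macrophages (background 21.1%). Outside the 50, the V0 gene Tcirg1 did exceed every other population in ductal macrophages (smallest log2 fold change 1.40, edgeR adjusted p = 0.0145). The count fell to 2 without ductal replicate 1, to 6 without ductal replicate 2, to 4 without CD103+ replicate 1 or either CD11b+ library, and to 7 without CD103+ replicate 2. It was 6 with library totals in place of TMM and 17 with DESeq2. Gaa and Scarb2 kept the call in all 16 alternatives.

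The macrophages were also set against CD11b+ cells alone. In pairwise tests, 26 of the 50 were higher and none was lower in ductal macrophages than in CD11b+ cells (background 12.0% and 11.4%). In stromal macrophages against CD11b+ cells 1 gene, Tfe3, was higher and 10 were lower (background 11.6% and 14.5%). Those 10 were Gusb, Galns, Psap, Gm2a, Laptm5, Clcn7, Atp6v0c, Atp6v0e, Atp6ap1 and Atp6ap2, with log2 fold changes from -3.03 for Gm2a to -0.85 for Atp6v0c. These comparisons share libraries with those above.

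No lysosome gene was called between CD103+ and CD103- cells, where 0.0319% of tested genes were called higher and 0% lower. The largest absolute log2 fold change among the 50 was 0.57, for Tpp1. With edgeR 1 of them, Atp6v0a1, had an unadjusted p under 0.05, as had 6.33% of all tested genes, and DESeq2 called none. The 95% intervals of the 50 reached log2 fold changes of up to 1.54 in size, so that differences up to the bound of a gene's interval are not excluded.

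Within a population, the 50 genes often differed in the same direction between the replicates. In ductal macrophages 45 of the 50 were higher in replicate 1 than in replicate 2, against 49.2% of all tested genes, with a median log2 difference of 0.29. In stromal macrophages 46 were higher in replicate 1, against 52.6% of tested genes, with a median difference of 0.33. In CD103+ cells 9 were higher in replicate 1, against 46.3%, with a median difference of -0.28. In CD103- cells 33 and in CD11b+ cells 22 were higher in replicate 1. With each library left out in turn, 20 to 32 genes were called higher in ductal than in stromal macrophages and 28 to 43 higher in ductal macrophages than in dendritic cells.

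Other genes of the pathway, on lists written for comparison, were counted beside the 50. Of 25 further lysosomal enzymes, 14 were higher and 2 lower in ductal than in stromal macrophages (median log2 fold change of the list 0.95; background 16.2% higher and 14.3% lower, also for the lists that follow). Plbd1, a phospholipase B-like protein, had 1777 and 1464 CPM in ductal macrophages and 194 and 139 CPM in stromal macrophages, a log2 fold change of 3.28 ± 0.37. Arsg was lower, with 0.683 and 0.757 CPM in ductal macrophages, near the level of 3 counts, and 19.4 and 8.95 CPM in stromal macrophages.

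Of 21 tested further membrane proteins, 10 were higher and 1 was lower in ductal than in stromal macrophages (median log2 fold change of the list 0.83). Npc1, the cholesterol exporter, Cd63, a tetraspanin, and Slc11a1, the metal transporter NRAMP1, were higher by log2 fold changes of 2.81 ± 0.24, 2.27 ± 0.28 and 2.00 ± 0.31. The lower one was Mcoln2, a TRPML channel, with 0.456 and 0.378 CPM in ductal macrophages, below the level of 3 counts, and 43.7 and 34.5 CPM in stromal macrophages. Of 8 tested further pump subunits 3 were higher and 2 lower (median 0.42). Tcirg1, the a3 isoform of V0, had 395 and 367 CPM in ductal macrophages and 54.8 and 85.7 CPM in stromal macrophages, a log2 fold change of 2.44 ± 0.28 (edgeR adjusted p = 9.22e-05). Atp6v0a2 was higher by 1.89 ± 0.31, whereas Atp6v0d2 and Atp6v1b1 were lower, by log2 fold changes of -3.36 ± 1.00 and -3.51 ± 0.84. Atp6v0d2 had only 2.51 and 1.14 CPM in ductal macrophages and 27.5 and 9.41 CPM in stromal macrophages. Atp6v1b1 had 2.73 and 8.70 CPM in ductal and 29.3 and 104 CPM in stromal macrophages. The epithelial marker Epcam had 65.4 and 75.7 CPM in ductal and 168 and 571 CPM in stromal macrophages. The part of epithelial cells in the Atp6v1b1 difference was not tested.

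Of 12 genes of enzyme sorting and modification, 6 were higher in ductal than in stromal macrophages (median log2 fold change of the list 0.78). Gnptab, the subunit of the enzyme that makes the mannose 6-phosphate tag, had 109 and 82.5 CPM in ductal macrophages and 4.75 and 9.18 CPM in stromal macrophages, a log2 fold change of 3.78 ± 0.36 (edgeR adjusted p = 2.71e-05). Nagpa, which uncovers the tag, M6pr, a receptor for it, and Gga2, an adaptor, were higher by 1.85 ± 0.24, 2.15 ± 0.31 and 2.17 ± 0.34. Of 22 genes that control TFEB and TFE3, 4 were higher and 1 was lower (median 0.36), a share of higher genes near the background of 16.2%. Rptor, Fnip2 and Mtor were higher by 3.38 ± 0.33, 2.71 ± 0.35 and 1.36 ± 0.39, and Lamtor5 was lower by a log2 fold change of -1.03 ± 0.26. In Rptor and Mtor stromal macrophages were also below dendritic cells, with log2 fold changes of -2.96 and -1.74.

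Against dendritic cells, ductal macrophages had 18 higher and 2 lower of the 25 further enzymes, 13 higher and 1 lower of the membrane proteins, 7 higher and 1 lower of the sorting genes, 2 higher and 1 lower of the pump subunits, and 9 higher of the 22 control genes (background 15.0% higher and 11.6% lower). Stromal macrophages had 12 higher and 4 lower, 6 higher and 5 lower, 3 higher and 3 lower, 1 higher and 2 lower, and 8 higher and 3 lower of the same lists (background 20.2% higher and 18.1% lower). The shares of the 12 sorting genes and 8 pump subunits were near that background. CD11b+ over CD11b- cells had 5 higher and 4 lower, 9 higher and 3 lower, 3 higher and 4 lower, 2 higher and 1 lower, and 7 higher and 1 lower (background 14.1% higher and 11.0% lower).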

How the data were processed

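RNA of 10 freshly sorted samples was sequenced as paired 80-base reads. The deposited values are raw counts of reads per gene, made by the authors with featureCounts on mm10 per the submitters' processing notes. No source used here names the aligner, the annotation or the strand setting. The deposited table also holds a length per gene, used for CPM per kilobase. Library totals ran from 5636092 to 23093742 counts, which sets the precision of low values. Entrez IDs were matched to RefSeq GRCm38.p6 names, with all 50 lysosome genes matched and 0.388% to 2.32% of counts in IDs without a symbol.

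From the deposited counts, edgeR 4.0.16 in R 4.3.3 gave quasi-likelihood tests in 1 fit over the 5 populations (TMM scaling, filterByExpr, robust dispersion, 5 residual degrees of freedom), adjusted by Benjamini-Hochberg over 15681 genes. SEs are the log2 fold change divided by the square root of F. A gene above every other population had the largest of its 4 p-values adjusted. Scripts were tested on simulated data. DESeq2 1.42.0, other scalings and filters, a replicate block and leaving out each library were the alternatives. With 2 biological replicates a population, p-values set a difference against the spread between replicates in all 5 populations, also those outside the comparison. No group has samples enough for a test of outlying samples. Values per library are given for up to 6 called genes per direction and comparison with the largest change, the most abundant gene per role and both transcription factors, with some other members named for their role. The genes and lists were chosen with earlier results of these data known. Some genes that this rule would name are not reported here.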

Additional observations from a re-analysis of the deposited data

How the results depend on the processing

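Over 16 alternatives, 568 values of named genes kept their direction and side of the threshold, 24 kept their direction but no longer passed, and none reversed. These were the called genes with the largest changes in the main fit, so the tally says little of the rest. Of the counts of called genes, 166 stayed the same or close and 26 moved further. Calls held in every alternative for 20 of 30 genes in ductal against stromal macrophages, 28 of 43 in ductal macrophages against dendritic cells, 16 of 30 in stromal macrophages against dendritic cells, 16 of 27 in CD11b+ against CD11b- cells and 2 of 12 above every other population. With library totals in place of TMM, stromal macrophages against dendritic cells had 12 higher and 16 lower, ductal macrophages against dendritic cells had 2 lower, and 6 genes were above every other population. That scaling moved the median of all genes to -0.58, -0.34, -0.46 and -0.22 in ductal against dendritic cells, stromal against dendritic cells, CD11b+ against CD11b- cells and ductal against stromal macrophages. Correlations of the deviations of replicate 1 from its population mean ran from -0.18 to 0.18 over 10 pairs of populations. They were 0.10 to 0.13 among ductal macrophages, stromal macrophages and CD11b+ cells, and 0.18 between CD103+ and CD103- cells. Between these sets they were -0.18 to -0.12. Such correlations cannot show whether samples of the same replicate number shared mice, and the labels do not say. With the replicate block, 27 genes were higher and 0 lower in ductal than in stromal macrophages. Leaving out 1 library at a time gave 20 to 32 higher and 0 to 1 lower in ductal against stromal macrophages, 28 to 43 higher in ductal macrophages against dendritic cells, 10 to 20 higher and 6 to 11 lower in stromal macrophages against dendritic cells, 14 to 24 higher and 2 to 5 lower in CD11b+ against CD11b- cells, and 2 to 12 above every other population. A population left with 1 library was assumed to vary like the others. These fits had fewer samples; the cause of the other changes was not tested.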
